A study of Homo sapiens with 18 samples.

Results

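CENPN and 9 other genes of the constitutive centromere-associated network were followed in LNCaP prostate cancer cells across 6 conditions. The 10 genes (CENPN, CENPC, CENPH, CENPI, CENPK, CENPL, CENPM, CENPO, CENPP and CENPQ) were taken by symbol from a table of 20145 genes. The list was chosen with earlier results of these data known. All 10 passed the filter on low counts, which left 15422 genes in the tests. CENPN was set beside the other 9, called its partners here, because it is described as a gene induced by androgen.

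LNCaP is an established human cell line from a prostate adenocarcinoma that depends on the androgen receptor. The study concerned inhibitors of the BRD7 bromodomain in prostate cancer. Cells grown in medium with serum were treated for 72 h with the vehicle DMSO, with 2-77 at 1 µM, with ACBI at 0.2 µM, with BD98 at 2 µM, with P-16 at 10 µM (spelled PB16 in the treatment protocol), or with ENZA (enzalutamide, an androgen receptor antagonist) at 10 µM. What 2-77, ACBI, BD98 and P-16 act on is not stated in the labels. Messenger RNA was sequenced from 3 libraries per condition, 18 in all. Nothing in the labels says whether the 3 libraries came from separate cultures, so the p-values measure the spread between these libraries, which may be technical. Doses differed between compounds, other than P-16 and ENZA, so values of compounds are set side by side.

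Depth ran from 16835113 to 36975052 counts per library. Counts of 18 ribosomal RNA genes took 0.639% to 2.09% of 17 libraries and 8.60% of ACBI replicate 3. The luminal identity of the line was visible in all libraries: 8 of 8 luminal markers passed the filter, with a summed level of 4039 to 9196 CPM (counts scaled to the size of each library). Summed basal markers reached at most 2.15 CPM, neuroendocrine markers 15.7 CPM, nearly all of it SYP, stromal markers 18.6 CPM, nearly all of it COL1A1, and immune markers 7.13 CPM, nearly all of it CD68. PTPRC, the pan-leukocyte gene, had at most 2 counts in a library.

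The kinetochore joins the centromere of each chromosome to spindle microtubules during mitosis. Its inner layer, the constitutive centromere-associated network, sits on nucleosomes that carry the histone variant CENP-A, and stays at the centromere through the cell cycle. CENP-N and CENP-C bind the CENP-A nucleosome directly. CENP-N pairs with CENP-L, CENP-H, CENP-I, CENP-K and CENP-M form another subcomplex, and CENP-O, CENP-P and CENP-Q belong to one more, while CENP-C reaches outward to the microtubule-binding outer kinetochore. Many kinetochore genes are transcribed mainly in the later phases of the cell cycle, through CHR and CCAAT promoter elements.

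The promoters of CENPN, CENPC and CENPK are shown because these genes stand for the 3 patterns described here: a gene that followed the androgen antagonist, one that varied least, and one that fell most with ACBI. Windows of 300 bases, 250 before and 50 after an annotated start, came from RefSeq (GRCh38.p14), which matched 7 of the 10 genes in 9 windows; CENPH, CENPL and CENPM had no entry. Capitals mark CHR elements (TTTGAA or TTCGAA) and CCAAT boxes, on either strand.
CENPN, chr16:81006964-81007263, plus strand: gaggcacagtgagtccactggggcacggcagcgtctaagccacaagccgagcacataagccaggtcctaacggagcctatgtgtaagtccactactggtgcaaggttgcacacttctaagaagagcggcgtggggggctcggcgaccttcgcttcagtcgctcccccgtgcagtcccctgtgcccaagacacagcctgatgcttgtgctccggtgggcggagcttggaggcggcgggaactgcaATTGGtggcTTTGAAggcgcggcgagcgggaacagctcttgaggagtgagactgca
CENPC, chr4:67545454-67545753, minus strand: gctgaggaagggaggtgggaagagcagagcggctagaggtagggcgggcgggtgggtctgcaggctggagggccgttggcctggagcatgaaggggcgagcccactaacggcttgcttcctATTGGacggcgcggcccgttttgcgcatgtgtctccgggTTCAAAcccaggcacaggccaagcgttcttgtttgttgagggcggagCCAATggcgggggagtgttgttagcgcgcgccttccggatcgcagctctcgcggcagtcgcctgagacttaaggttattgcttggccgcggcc
CENPK, chr5:65563119-65563418, minus strand: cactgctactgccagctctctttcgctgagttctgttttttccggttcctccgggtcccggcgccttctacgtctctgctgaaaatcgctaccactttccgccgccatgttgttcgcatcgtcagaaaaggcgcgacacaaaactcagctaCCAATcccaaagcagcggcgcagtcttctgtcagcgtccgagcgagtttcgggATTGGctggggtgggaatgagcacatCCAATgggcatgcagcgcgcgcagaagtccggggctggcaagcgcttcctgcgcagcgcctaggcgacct
A CHR element stood in 3 of 9 member windows (CENPN, CENPC and CENPO), against 16.4% of all 35116 windows. A CCAAT box stood in 5 of 9 member windows (CENPN, CENPC, CENPK, CENPP and CENPQ), against 34.6% of all windows. The CENPP box lay in its window at chr9:92600007-92600306, inside the gene. The CENPN and CENPC windows held both. The E2F sites searched (TTTCCCGC, TTTGGCGC, TTTCGCGC) were in 0 member windows and in 2.74% of all. The full palindromic androgen response element was in 0 member windows and in 1 window of the whole table. Its single repeat AGAACA was in 2 of 9 member windows (CENPI and CENPP) and in 14.8% of all. These are matches of letters on both strands, not sites of binding.

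CENPN was far the most abundant of the 10 transcripts and the one that moved most with enzalutamide, 2-77 and P-16. It lies on chromosome 16, positions 81006498 to 81033104 of hg38, on the plus strand. Its level was 502, 508 and 531 CPM in the DMSO libraries, 792, 767 and 777 CPM with ACBI, and 296, 277 and 293 CPM with BD98. It was 160, 157 and 159 CPM with P-16, 102, 105 and 101 CPM with ENZA, and 90.0, 95.9 and 89.6 CPM with 2-77. No 2 conditions overlapped. Differences between replicates were small, with an SD of 15.4 CPM on a mean of 514 CPM in DMSO and of 1.73 CPM on 159 CPM with P-16 (n = 3 each).

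**Figure D1:**
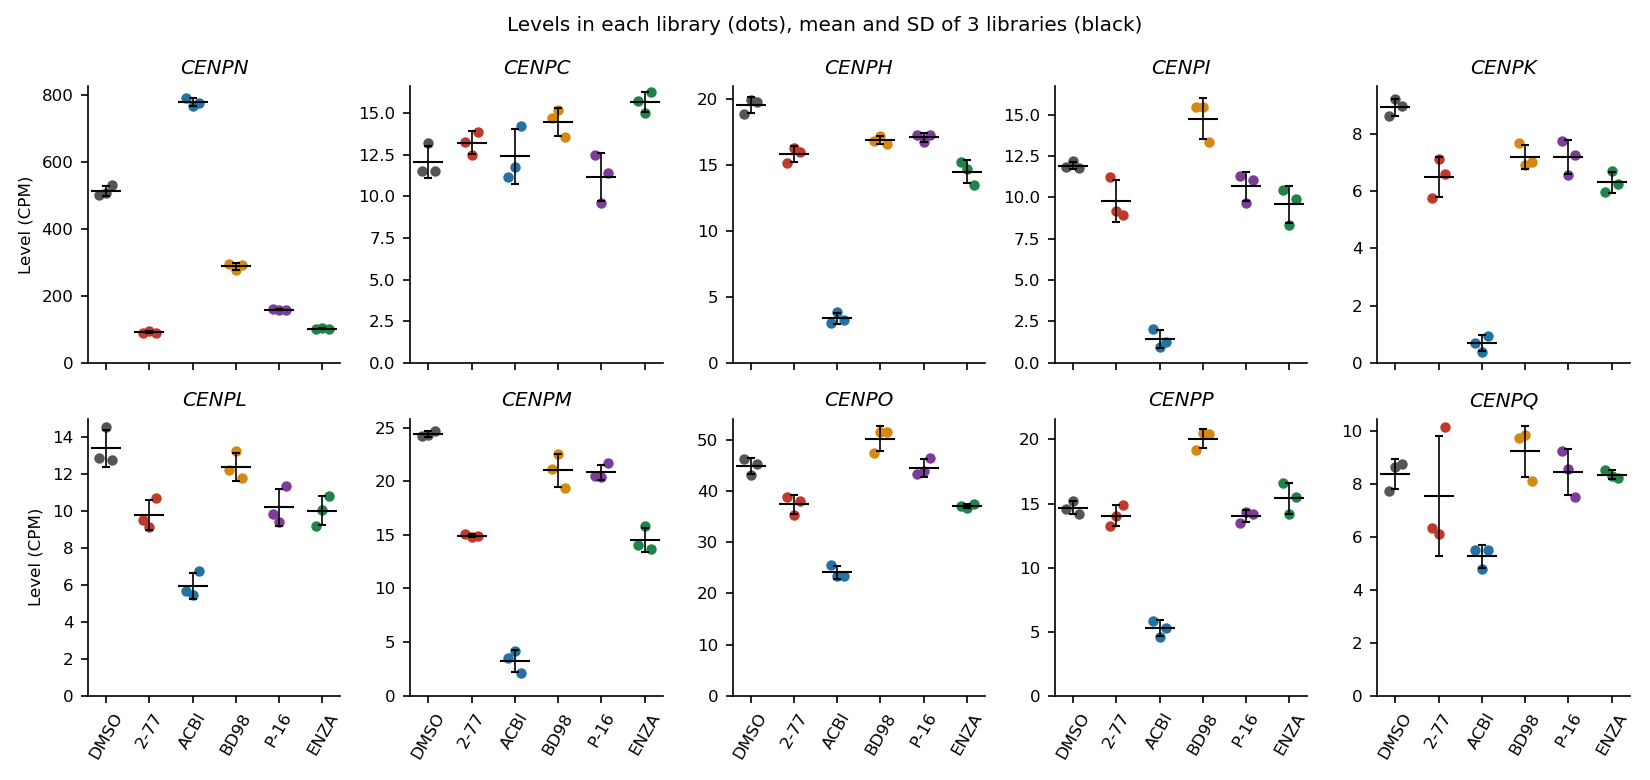
Level of each of the 10 genes (vertical axis, CPM, a separate scale from 0 for each gene) in each library of the 6 conditions (dots), with the mean and SD of 3 libraries in black. CENPN forms 6 separate levels from 91.8 CPM with 2-77 to 779 CPM with ACBI, whereas 8 partners are lowest with ACBI and CENPC is not.

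Against DMSO, CENPN fell with 4 compounds and rose with ACBI, by edgeR's quasi-likelihood test with Benjamini-Hochberg adjustment over 15422 genes. With 2-77 it fell by 2.48 on the log2 scale (SE 0.039, 5.60-fold lower, adjusted p = 9.1e-29). With ENZA it fell by 2.32 (SE 0.039, 5.00-fold lower, adjusted p = 4.98e-28), and with P-16 it fell by 1.70 (SE 0.038, 3.24-fold lower, adjusted p = 4.4e-24). The fall with BD98 was smaller, at -0.83 (SE 0.037, adjusted p = 1.43e-17). The rise with ACBI was 0.60 (SE 0.036, 1.52-fold, adjusted p = 4.15e-15). It was 0.58 to 0.63 when any library of ACBI or DMSO was left out, ACBI replicate 3 included.

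CENPN stood near the extreme of all genes with 3 compounds. Only 61 of 15422 genes had a lower log2 fold change with 2-77, 59 with P-16 and 73 with ENZA. Ranked by p, CENPN was in place 5 with 2-77, 2 with P-16 and 5 with ENZA. With BD98, 934 genes had a lower value, and with ACBI 83.1% of genes did.

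The order of CENPN levels was ACBI, DMSO, BD98, P-16, ENZA and 2-77, from high to low, and all 5 neighbouring pairs in that order differed. P-16 and ENZA, both at 10 µM, differed by 0.63 (SE 0.038, edgeR adjusted p = 1.52e-13). The closest pair was ENZA at 10 µM and 2-77 at 1 µM, which differed by 0.16 (SE 0.038, edgeR adjusted p = 0.00705). That last call was lost without 2-77 replicate 1 (adjusted p = 0.0577) or without ENZA replicate 2 (adjusted p = 0.0549). No partner had such a ladder: CENPM and CENPO had 3 of 5 neighbouring pairs that differed, CENPI, CENPK, CENPL and CENPP had 2, CENPH and CENPQ had 1, and CENPC had 0. Between compounds, the share of all genes that differed was 70.2% for 2-77 and ACBI, 42% for 2-77 and BD98, 22.4% for 2-77 and P-16, 5.54% for 2-77 and ENZA, 69.6% for ACBI and BD98, 71.5% for ACBI and P-16, 70.1% for ACBI and ENZA, 43.6% for BD98 and P-16, 42.5% for BD98 and ENZA and 21.3% for P-16 and ENZA. CENPN had higher counts and a smaller SE than any partner, so a difference of the same size would pass more readily for CENPN. What set the SEs was not tested.

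Per kilobase of merged exons (GENCODE v29), CENPN in DMSO stood at 144 CPM per kb ± 4.33 (SD, n = 3). The partners ran from 1.40 ± 0.112 for CENPC to 13.7 ± 0.141 for CENPM. CENPL, whose product pairs with CENP-N, stood at 2.72 ± 0.20. The ratio of CENPN to CENPL per kb was thus 53.1 ± 4.65 in DMSO, and it moved in both directions. It was 13.0 ± 1.48 with 2-77, 14.2 ± 1.16 with ENZA, 21.6 ± 1.93 with P-16, 32.2 ± 2.97 with BD98 and 182 ± 20.1 with ACBI. Levels and ratios depend on the length used. Per kb of the longest transcript in DMSO, CENPN stood at 207 CPM and CENPL at 5.41 CPM, and the lowest partner was CENPP at 1.67 CPM. These transcript ratios say nothing of the proteins.

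With 2-77, 6 of the 10 genes fell and 0 rose, against 40.7% of all genes that passed in either direction, 20.2% that fell and 20.5% that rose. CENPN was one of them, so 5 of 9 partners fell: CENPL, CENPM, CENPK, CENPH and CENPO. The median of the 9 partners was -0.28, against 0.00086 over all genes tested. CENPM, a small protein of the CENP-H and CENP-I subcomplex, fell most among partners, by 0.71 (SE 0.094, edgeR adjusted p = 4.22e-07). Its DMSO libraries held 24.2, 24.3 and 24.7 CPM and its 2-77 libraries 15.1, 14.8 and 14.9 CPM, with no overlap. CENPL fell by 0.45 (SE 0.10, edgeR adjusted p = 0.000496), from 12.9, 14.5 and 12.7 CPM to 9.50, 9.11 and 10.7 CPM.

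The partners that did not pass with 2-77 were CENPC (0.13), CENPI (-0.28), CENPP (-0.06) and CENPQ (-0.16). CENPI passed without 2-77 replicate 1 (-0.40, edgeR adjusted p = 0.0216). CENPQ rested on a high replicate 3, 10.2 CPM beside 6.35 and 6.13 CPM, and passed without it (-0.43, edgeR adjusted p = 0.00707).

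With ENZA, 7 of 10 genes fell and 1 rose, against 18.1% of all genes lower, 18.2% higher and 36.3% in either direction. The contrasts of all compounds use the same 3 DMSO libraries, so their values are given side by side and likeness between them is not a result. CENPM fell by 0.74 (SE 0.095), CENPK by 0.50 (SE 0.127), CENPH by 0.43 (SE 0.075), CENPL by 0.42 (SE 0.10), CENPI by 0.33 (SE 0.123) and CENPO by 0.28 (SE 0.056). The CENPI call (edgeR adjusted p = 0.0365) was lost on leaving out DMSO replicate 1 (0.0735), 2 (0.0958) or 3 (0.0751), or ENZA replicate 2 (0.226) or 3 (0.0541).

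CENPC was the partner that rose with ENZA, by 0.37 (SE 0.097, edgeR adjusted p = 0.00321). Its 3 ENZA libraries held 15.7, 15.02 and 16.3 CPM and its DMSO libraries 11.5, 13.2 and 11.5 CPM, without overlap. CENPP (0.06) and CENPQ (-0.01) did not pass. Compared directly, 2-77 at 1 µM and ENZA at 10 µM differed in 1 of the 10 genes, CENPN, against 5.54% of all genes. The partners' differences between these compounds ran from -0.24 (CENPC) to 0.12 (CENPH), with SEs of 0.056 to 0.138, and none passed, which does not show that the compounds act alike.

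With P-16, CENPN fell while 8 of 9 partners did not pass in the fit of all libraries. Of the 10 genes 2 fell and 0 rose, against 11.6% of all genes lower, 12.4% higher and 24% in either direction, so the number of members called was near that of genes in general. In a fit of the P-16 and DMSO libraries alone 5 of the 10 fell, with CENPH, CENPK and CENPM added. The share of all genes that passed in that fit is not given here, so this count is not read as a result about the members. In the fit of all libraries CENPL was the partner that passed, at -0.40 (SE 0.102, edgeR adjusted p = 0.00419), with 9.84, 9.38 and 11.3 CPM in the P-16 libraries. The median of the partners was -0.16. At the matched dose of 10 µM, P-16 and ENZA differed in 5 of the 10 genes, against 21.3% of all genes. CENPM (0.51), CENPO (0.26) and CENPH (0.24) were higher with P-16 besides CENPN, and CENPC was lower (-0.48, SE 0.097, edgeR adjusted p = 0.000519).

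With BD98, CENPN fell while partners moved both ways. Of the 10 genes 4 fell and 4 rose, against 24.5% of all genes lower, 24.5% higher and 49% in either direction. CENPP, of the CENP-O subcomplex, rose by 0.45 (SE 0.082, edgeR adjusted p = 3.66e-05). Its BD98 libraries held 19.2, 20.5 and 20.5 CPM against 14.6, 15.2 and 14.2 CPM in DMSO, without overlap. CENPI (0.30), CENPC (0.25) and CENPO (0.16) also rose, and CENPK (-0.31), CENPM (-0.22) and CENPH (-0.21) fell, all with edgeR adjusted p of 0.0171 to 0.0463.

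Those last 6 calls each failed on leaving out at least 1 library, whereas CENPP and CENPN kept theirs. The number that rose was 1 to 3 and the number that fell 1 to 3 across the 6 libraries left out in turn. Each of DMSO replicates 1, 2 and 3 and BD98 replicates 1 and 2 brought the count of risers to 2 or fewer, and without DMSO replicate 2 or 3 or BD98 replicate 3 only CENPN fell. Scaling by library totals moved the share of higher calls over all genes with BD98 from 50.03% to 61.8%, and CENPN was then the 1 gene of the 10 that fell.

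**Figure D2:**
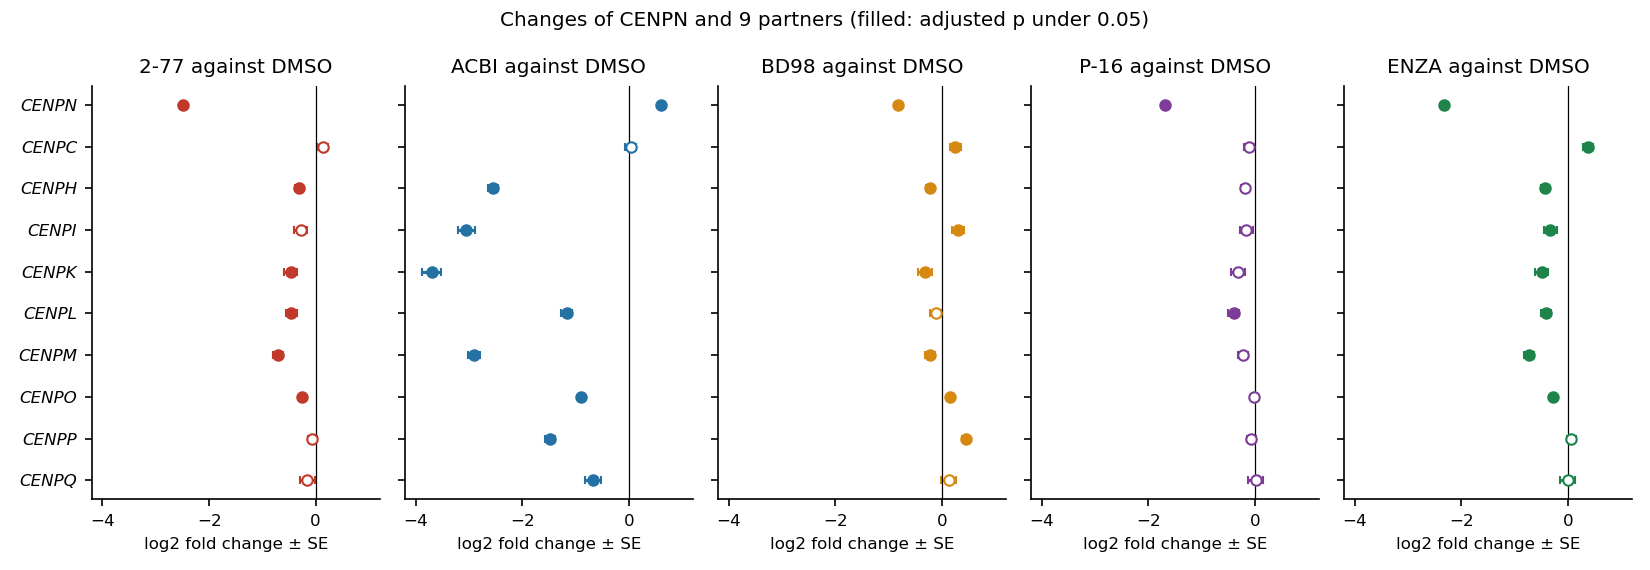
Log2 fold change against DMSO (horizontal axis) with its SE for CENPN and the 9 partners in the 5 contrasts; filled points passed an adjusted p of 0.05. CENPN lies at -2.48 with 2-77 and at 0.60 with ACBI, whereas CENPK lies at -0.47 and -3.69.

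ACBI set CENPN and its partners apart in the opposite direction. CENPN rose while 8 of 9 partners fell, against 35.4% of all genes higher, 36.6% lower and 72% in either direction. The median of the partners was -1.47, against -0.0078 over all genes tested. Between leaving out a library, other scaling, filters and tools, no call of the 10 genes with ACBI changed.

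The CENP-H, CENP-I, CENP-K and CENP-M subcomplex fell most. CENPK fell from 8.61, 9.20 and 8.96 CPM to 0.70, 0.39 and 0.95 CPM, which rests on 18, 9 and 23 counts. That is a fall of 3.69 on the log2 scale (SE 0.18, 12.9-fold lower, edgeR adjusted p = 2.31e-17). CENPI fell by 3.05 (SE 0.165) to 2.02, 0.96 and 1.28 CPM, and CENPM by 2.91 (SE 0.118) to 3.50, 4.13 and 2.15 CPM. CENPH fell by 2.54 (SE 0.093), from 18.9 to 19.97 CPM in DMSO to 3.03 to 3.87 CPM. None of these 4 genes overlapped between ACBI and DMSO.

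The remaining partners fell less. CENPP fell by 1.47 (SE 0.096), CENPL by 1.17 (SE 0.107), CENPO by 0.89 (SE 0.059) and CENPQ by 0.67 (SE 0.149, edgeR adjusted p = 0.000233). CENPO, the most abundant partner in CPM, went from 46.2, 43.0 and 45.4 CPM to 25.5, 23.5 and 23.3 CPM. CENPC stood at 11.2, 11.7 and 14.2 CPM with ACBI, overlapping its DMSO libraries, with a log2 fold change of 0.04 (SE 0.10). In bulk RNA, fewer cells that express a gene and less RNA per cell cannot be told apart.

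Each partner's change was also tested against that of CENPN, on log2 CPM minus that of CENPN in the same library, with limma. All 9 partners differed from CENPN in all 5 contrasts. Nearly all genes did so: 99.4% with 2-77, 81.5% with ACBI, 88.1% with BD98, 98.5% with P-16 and 99.2% with ENZA, so the count sets CENPN apart from genes in general and not from its partners in particular. CENPL, its direct partner, fell less than CENPN with 2-77, and its change minus that of CENPN was 2.03 (SE 0.114, limma adjusted p = 1.47e-18). With ACBI that difference was -1.76 (SE 0.114, limma adjusted p = 4.65e-16). The smallest separation was CENPK with BD98, at 0.52 (SE 0.169, limma adjusted p = 0.00504).

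Many genes of the wider kinetochore also fell with 2-77, where 20.2% of all genes were lower, and with ACBI, where 36.6% were lower. With 2-77, the outer kinetochore, which grips microtubules, had 11 of 13 genes lower and 0 higher, at a median of -0.36. The lowest p-values there were those of SKA1 (-0.84), SPC25 (-0.67), SKA3 (-0.65) and NDC80 (-0.54). The corona and checkpoint list had 10 of 14 lower (median -0.42), led by the kinesin CENPE (-0.92) and CENPF (-0.68). The centromeric cohesion and Aurora B list had 7 of 10 lower (median -0.37), with CDCA8 (-0.71) and BIRC5 (-0.49), both of the chromosomal passenger complex. Of the other inner kinetochore genes 3 of 7 were lower (median -0.24), among them CENPA, the centromeric histone itself (-0.78), and CENPU (-0.65). Of 8 genes of CENP-A loading and centromeric chromatin, called the CENP-A loading list below, 5 were lower and 1 higher (median -0.30). The CENP-A chaperone HJURP was at -0.56.

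With ACBI the medians of these lists were lower. The outer kinetochore had 12 of 13 lower (median -3.83), including SPC24 (-4.18), NDC80 (-4.13), KNL1 (-4.11) and ZWINT (-2.61). The corona and checkpoint list had 13 of 14 lower (median -2.33), the cohesion and Aurora B list 9 of 10 lower and 1 higher (median -2.10), the other inner kinetochore 5 of 7 lower (median -0.75) and CENP-A loading 6 of 8 lower and 1 higher (median -1.09). CENPA stood at -4.45, HJURP at -4.41 and CENPF at -4.80. RBBP7, a histone-binding protein of several chromatin complexes, was the CENP-A loading gene that rose (0.98). The cell cycle reference list had 14 of 16 lower with ACBI (median -3.06), with the proliferation marker MKI67 at -4.57 and TOP2A at -5.10. It had 12 of 16 lower with 2-77 (median -0.35). How much of the partners' fall went with the cell cycle genes was not tested.

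The other compounds gave these counts, with no test of the difference between compounds. ENZA, against 18.1% of all genes lower, lowered 11 of 13 outer kinetochore, 10 of 14 corona and checkpoint, 7 of 10 cohesion and Aurora B, 4 of 7 other inner kinetochore, 5 of 8 CENP-A loading and 13 of 16 cell cycle reference genes, and raised 2 CENP-A loading genes, with medians between -0.40 and -0.29. P-16, against 11.6% of all genes lower, lowered 10 of 13, 8 of 14, 5 of 10, 2 of 7, 4 of 8 and 7 of 16 of them, in that order. It raised 1 corona gene and 1 gene of the CENP-A loading list, and the list medians lay between -0.25 and -0.02. BD98 lowered 4 of 13, 6 of 14, 4 of 10, 4 of 7, 2 of 8 and 4 of 16 and raised 2, 1, 2, 2, 3 and 5, with medians between -0.20 and 0.01. Against 24.5% of all genes lower and 24.5% higher with BD98, several of these counts, such as 4 of 13, 2 of 8 and 4 of 16, are at about the general share.

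Genes of the androgen-induced list, which holds CENPN, mostly fell with the 4 compounds that lowered CENPN. Of the 46 genes other than CENPN, 38 fell and 2 rose with 2-77 (median -0.96), 37 fell and 2 rose with ENZA (median -0.91), 35 fell and 1 rose with P-16 (median -0.52), and 33 fell and 5 rose with BD98 (median -0.50). With ACBI they divided, 27 higher and 14 lower, at a median of 0.38. The shares of all genes that fell were 20.2% with 2-77, 18.1% with ENZA, 11.6% with P-16, 24.5% with BD98 and 36.6% with ACBI, where 35.4% rose, so the 14 lower with ACBI are near the general share. KLK2 and KLK3, which encode secreted kallikreins, were at -4.17 and -2.71 with ACBI, opposite in sign to CENPN. KLK4, the other kallikrein gene of the list, rose by 0.84 with ACBI (SE 0.054), as CENPN did. NCAPD3, a condensin II subunit, rose with ACBI by 2.69. CENPN lay below 39 of these 46 genes with 2-77, below 43 with P-16 and below 38 with ENZA.

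**Figure D3:**
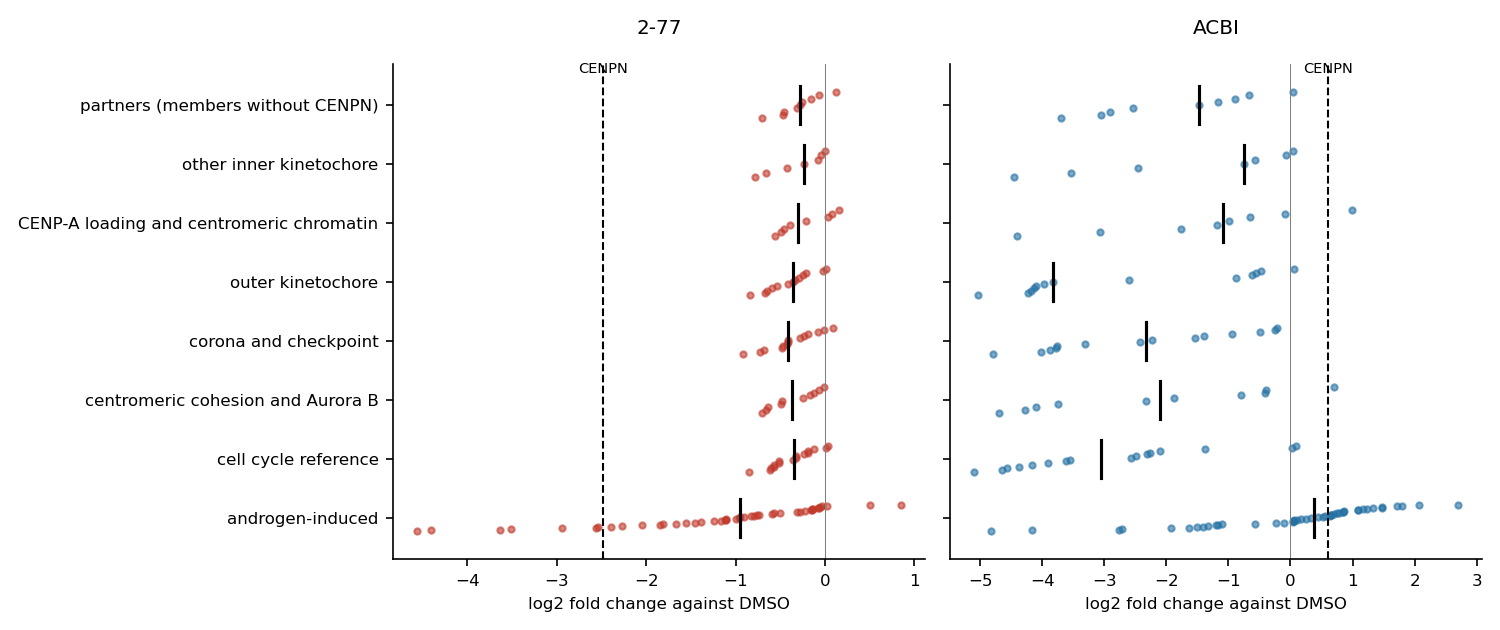
Log2 fold change against DMSO with 2-77 (left) and ACBI (right) of each tested gene (points) in the partners and 7 other lists, CENPN left out; black bars mark medians and the dashed line CENPN. With 2-77 CENPN at -2.48 lies below every kinetochore and cell cycle point, and with ACBI at 0.60 it lies above all but RBBP7 and a cohesion gene of those lists.

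The genes whose pattern was most like CENPN were not centromere genes. Likeness was the root mean square difference between condition means of log2 CPM, each gene centred on its own mean, over 6 conditions, among 11807 genes with at least 4 CPM. The 6 closest were F5 (0.30), ZBTB16 (0.32), DUSP4 (0.36), MBOAT2 (0.38), LINC01881 (0.39) and PNMA1 (0.40). F5 encodes coagulation factor V, ZBTB16 the zinc finger repressor PLZF, DUSP4 a MAP kinase phosphatase and MBOAT2 a lysophospholipid acyltransferase. Over the 18 libraries, which share conditions, Pearson's r with CENPN was 0.94 to 0.99 for these 6, as a description.

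The values of ZBTB16 show the pattern. It ran from 136 to 147 CPM in DMSO and 245 to 261 CPM with ACBI, and lay at 40.2 to 41.6 CPM with 2-77 and 45.2 to 45.8 CPM with ENZA. It fell by 1.81 with 2-77 (SE 0.045) and rose by 0.83 with ACBI (SE 0.042, edgeR adjusted p = 5.49e-17). CENPN itself fell further than ZBTB16 with 2-77, by a difference of 0.68 (SE 0.055, limma adjusted p = 6.2e-14).

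Partners ranked 7950 (CENPC) to 11640 (CENPK) of 11807 by this measure, and their r with CENPN over 18 libraries was -0.26 to -0.57. A low rank was not particular to partners. Of genes picked by hand from the androgen-induced list, KLK3 ranked 10139 and KLK2 11384, whereas FKBP5 ranked 12, NCAPD3 163 and TMPRSS2 1789. Without the ACBI libraries, a choice made after the values were seen, r was 0.90 for CENPM, 0.86 for CENPL and 0.85 for CENPH over the 15 libraries left, and -0.28 for CENPC, 0.29 for CENPQ and 0.32 for CENPP. Ranked by the root mean square difference without ACBI, partners ran from 145 (CENPM) to 9323 (CENPC) of 11807. The closest gene then was TMPRSS2, a protease gene induced by androgen, and only DUSP4 of the 6 remained among the 6 closest.

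**Figure D4:**
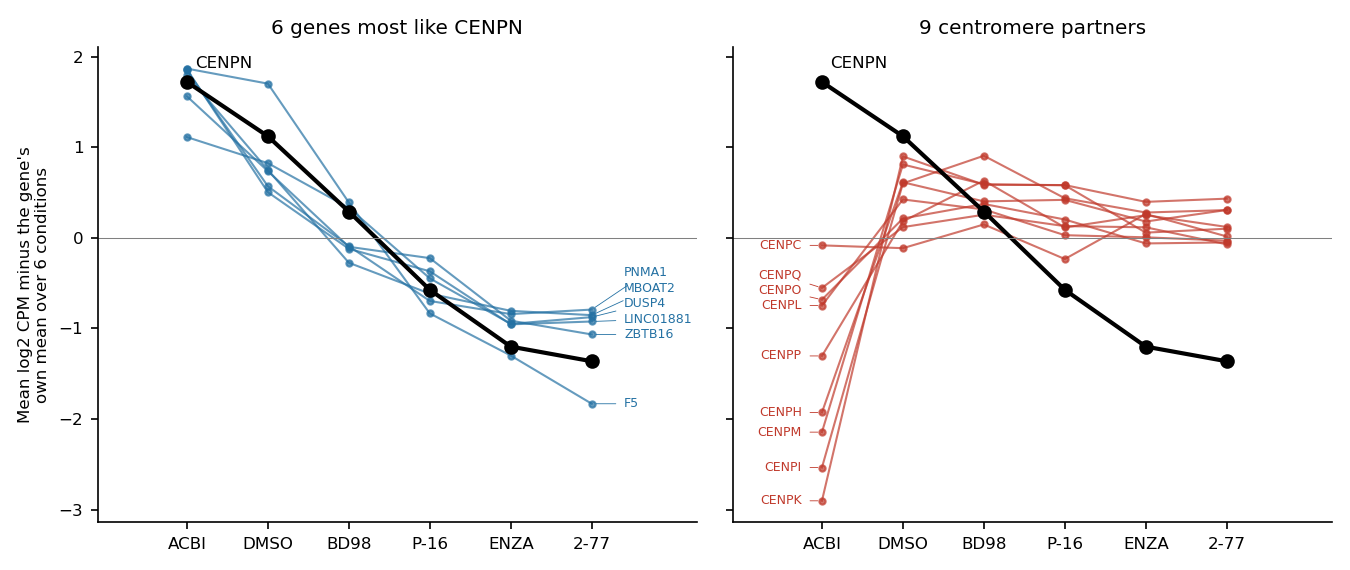
Mean log2 CPM (no prior count) of each gene in 6 conditions minus its own mean over them, for CENPN (black) with the 6 genes most like it (left) and with the 9 partners (right); conditions are ordered by the CENPN level. The 6 genes, chosen for this likeness, are higher with ACBI and DMSO than with ENZA and 2-77, whereas 8 of 9 partners are lowest with ACBI and CENPC is lowest with P-16.

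CENPN begins close to a gene on the other strand. CMC2, which encodes a factor of cytochrome c oxidase assembly, lies on the minus strand. By the deposited gene positions it overlaps CENPN by 388 bases at the start. The RefSeq promoter window of CENPN begins at 81006964, beyond the CMC2 end at 81006885, so from the RefSeq start the genes do not overlap. CMC2 rose with ACBI from 54.4 CPM ± 1.41 to 280 CPM ± 4.27 (SD, n = 3), a log2 fold change of 2.36 (SE 0.047, edgeR adjusted p = 4.77e-27). The means rose by 265 CPM for CENPN and by 225 CPM for CMC2. The kit marks strand, but whether the counting used it is not given in the sources used here. CENPN counts held decimals, which may be a sign of reads divided between features, in 16 of 18 libraries. Over all genes, 29.7% of values above 0 held decimals, so decimals were not particular to CENPN. Which features shared any such reads is not known. The part of such reads in the CENPN rise with ACBI was not tested. With 2-77, CENPN went from 514 to 91.8 CPM. CENPO and CENPP, which also overlap genes on the other strand, held decimals in 18 of 18 libraries. The other 7 genes held them in 0. Among them, the listed span of GUSBP1 (plus strand) takes in both CENPK (minus strand) and CENPH (plus strand), which lie apart on chromosome 5.

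Other genes around CENPN moved as well. Genes that start within 500 kb of the CENPN start and passed the filter were taken, after CENPN values were seen, and 8 are reported. With ACBI, 7 of 8 rose and 0 fell, against 35.4% of all genes higher. ATMIN, a cofactor of the ATM kinase that starts 29.3 kb downstream, rose from 192 CPM ± 8.30 to 823 CPM (log2 fold change 2.10, SE 0.037), and CDYL2, a chromodomain protein, from 145 CPM ± 3.45 to 366 CPM (1.34, SE 0.038). C16orf46 (1.14), GCSH (0.49) and CMIP (0.44) also rose. Neighbouring genes are not independent replicates.

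With 2-77, 6 of the 8 fell and 1 rose, against 20.2% of all genes lower. Among them, ARLNC1, a long noncoding RNA named for its regulation by the androgen receptor, fell by 2.87 (SE 0.207, 7.33-fold lower). It fell by 2.62 with ENZA (SE 0.201) and by 1.63 with P-16 (SE 0.186), and was at 4.81 CPM in DMSO and 4.11 CPM with ACBI, where it did not pass (-0.23). CDYL2 fell by 0.88 with 2-77, by 0.89 with ENZA and by 0.73 with P-16. With ENZA and with P-16, 5 of the 8 fell and 1 rose, against 18.1% and 11.6% of all genes lower. With BD98, 2 of the 8 fell and 1 rose, against 24.5% of all genes lower and 24.5% higher, so the number that fell was near the general share. ARLNC1 (0.15) and CDYL2 (-0.04) did not pass with BD98, whereas CENPN fell.

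**Figure D5:**
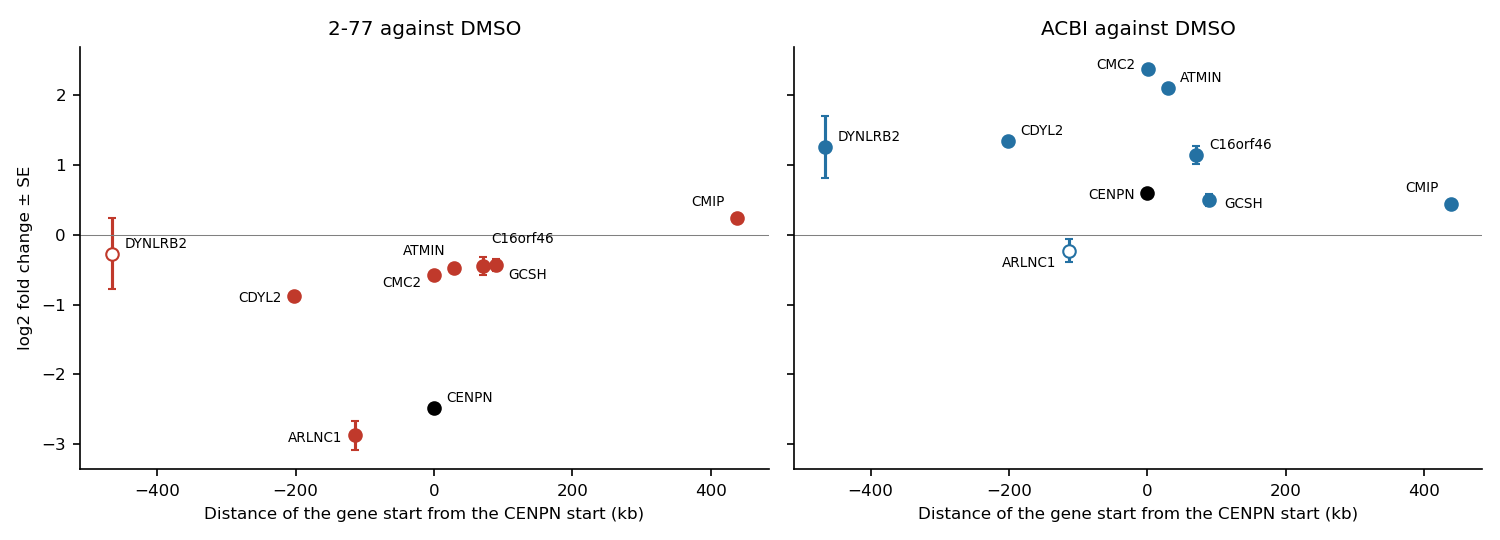
Log2 fold change against DMSO with its SE (vertical axis) of CENPN (black) and 8 tested genes that start within 500 kb of it, by distance of the starts in kb, with 2-77 (left) and ACBI (right); filled points passed an adjusted p of 0.05. With 2-77 ARLNC1 (-2.87) lies beside CENPN (-2.48), and with ACBI 7 of the 8 rose, against 35.4% of all genes.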

How the data were processed

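LNCaP RNA was sequenced in 18 libraries, 3 per condition, from a stranded messenger RNA kit, per the labels' protocols. The submitters' processing notes name STAR, Partek, DESeq2 and hg38, without versions; the counting program and its strand setting are not given in the sources used here. The authors deposited estimated counts per gene (expected counts with decimals, not scaled to depth), with gene positions, whose end was taken as the base before the listed stop: 57.8% of 19302 genes then matched RefSeq at both ends. Columns named SCO277 and PB_16 were taken as 2-77 and P-16; 0 columns were unused.

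Counts were rounded and tested in R 4.3.3 with edgeR 4.0.16: filterByExpr, TMM scaling, a robust quasi-likelihood fit of all 18 libraries (12 residual degrees of freedom, common coefficient of variation 0.0573), two-sided F tests and Benjamini-Hochberg adjustment over 15422 genes (threshold 0.05). SEs are the log2 fold change divided by the root of F. CPM use TMM-scaled totals. Differences from CENPN used limma 3.58.1 on log2 CPM with a prior count of 2. Both fits were tested on simulated data. Python 3.11.15 and matplotlib 3.10.9 were used for promoters and figures.

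All 10 members and the 6 genes most like CENPN are named. From other lists, genes named with their changes are at most 4 of smallest p in a contrast, except KLK4. The androgen-induced genes given a likeness rank, and PTPRC, were picked by hand, and FKBP5 falls outside that rule. Genes near CENPN, and the genes closest to it without ACBI, were chosen after values were seen. A gene near CENPN is not reported here. The members and lists were chosen with earlier results of these data known. No replicate pair agreed within sampling noise (chi-square per degree of freedom at least 2.14). Same-number libraries of different conditions were treated as unpaired: 1 of 45 residual correlations was above 0.1. Alternatives were DESeq2 1.42.0, library totals, other filters, a replicate block, a fit of 2 groups, another prior count of 0.5 and leaving out each library.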

Additional observations from a re-analysis of the deposited data

How the results depend on the processing

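CENPN against DMSO kept its direction and its call in 65 of 65 alternatives. Of 585 values of single partners under these alternatives, 36 lost a call (31 with BD98, 5 with ENZA), 7 gained one (4 with 2-77, 3 with P-16) and 0 reversed a called direction. Of the counts of members, the number that fell with BD98 dropped from 4 to 1 with library totals. The number that fell with P-16 went from 2 to 5 in the fit of the 2 groups only, where CENPH, CENPK and CENPM joined. The cause was not tested, and the share of all genes that passed in that fit is not given here. Leaving out 1 library gave 1 to 3 members higher and 1 to 3 lower with BD98, and a CENPN difference between 2-77 and ENZA of -0.195 to -0.144. With replicate number as a block, CENPI passed with 2-77 (-0.29, edgeR adjusted p = 0.0399) and CENPK did not with BD98 (-0.31, edgeR adjusted p = 0.0539), and no other call of a member changed. DESeq2 did not call CENPC with BD98 (adjusted p = 0.0599). Of the 6 genes most like CENPN, 3 remained when ranked by r, 4 with a minimum of 1 CPM and 1 without the ACBI libraries. In the fit of all libraries, CENPK with P-16 at -0.31 (edgeR adjusted p = 0.0764) and CENPI with 2-77 at -0.28 (edgeR adjusted p = 0.0685) did not pass. Both passed in the fit of the 2 groups only (edgeR adjusted p = 0.0356 and 0.0397). Whether the lower counts of partners limit such calls was not tested.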
